A study of Homo sapiens with 4 samples.

Results

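GDF15 and 9 further ligands of the bone morphogenetic protein (BMP) and growth differentiation factor (GDF) family were examined in JJ012, a human chondrosarcoma cell line, and 143B, a human osteosarcoma cell line. The 10 genes were GDF15, BMP2, BMP4, BMP6, BMP7, BMP8A, GDF5, GDF6, GDF10 and GDF11, out of 61806 genes in the deposited table. They were chosen by gene symbol, and GDF15 was included because it had the largest increase in JJ012, so that its change in JJ012 is a description. Cells of both lines were kept in suspension, without attachment to a substrate, and were either left untreated or given 1 mM melatonin for 72 h. Each of the 4 conditions was 1 library of poly(A)-selected RNA. The sample labels name no vehicle for the controls, and the table marks the treated library of each line only by the suffix T, which was read as melatonin. Without replicate cultures, no difference within a line could be set against the spread between cultures, and differences within a line carry no p-value.

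BMPs and GDFs are secreted as precursors that furin-like convertases cleave, and the mature dimers bind type I and type II serine/threonine kinase receptors. For most BMPs the receptors phosphorylate SMAD1, SMAD5 and SMAD9, which enter the nucleus with SMAD4 and induce genes such as the ID family. BMPs were named for their ability to induce cartilage and bone. GDF15 is a divergent member of the family that cells release under stress, and its transcription is known to respond to p53 and to the stress factors ATF4 and CHOP. Its receptor GFRAL, with the co-receptor RET, is found mainly in the hindbrain.

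Library totals lay between 15889564 and 19218343 counts. Levels are given as FPKM, in which counts are divided by exonic length and by the library total, so that genes can be compared per length. Changes are on the log2(FPKM + 1) scale, melatonin less control, on which low genes appear to change less than they did. A gene reaching 1 FPKM in either library of a pair was held against a log2 threshold of 0.58, the fold criterion of the study, and is called tested here, which means a fold criterion and not a statistical test. Counts scaled to the library total (CPM) gave a ratio for each gene, with 95% bounds by the exact Clopper-Pearson method. These bounds hold for counting error alone and leave out the spread between cultures. They treat each count as independent, and PCR copies are not independent molecules, so they may be too narrow. The floor for a library was set at 3 counts, or between 0.156 and 0.189 CPM. The defining markers of the labelled tissues were mostly low. In the JJ012 control COL2A1 was at 0 counts and ACAN at 4 counts, with SOX9 at 15.1 FPKM. In the 143B control SP7, IBSP and DMP1 were at 0 counts, with RUNX2 at 4.28 FPKM. The summed level of 8 chondrocyte markers was 22.6 FPKM in the JJ012 control and 8.48 FPKM with melatonin, and 21.7 and 19.1 FPKM in 143B. The 8 osteoblast markers summed to 94.7 and 68.2 FPKM in JJ012 and to 6.97 and 5.07 FPKM in 143B. The JJ012 control sum was mostly SPP1 (79.4 FPKM) and COL1A1 (10.9 FPKM), which were at 0.40 and 0.49 FPKM in the 143B control. RUNX2 and BGLAP were lower in the JJ012 control (3.02 and 0.81 FPKM) than in the 143B control (4.28 and 1.44 FPKM). A list of 11 immune, epithelial and endothelial markers summed to 35.2 and 20.0 FPKM in JJ012 and to 50.2 and 35.7 FPKM in 143B. In the 143B control this sum was mostly KRT18 (35.8 FPKM) and KRT8 (9.64 FPKM). CD3E was at 9.73 and 3.28 FPKM in JJ012 and at 0 counts in 143B, and PTPRC was at 0.14 FPKM in the JJ012 control. The part of these shifts in the ligand values was not tested.

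Untreated, the lines held different ligands. GDF15 made up 63.1% of the summed FPKM of the 10 ligands in the JJ012 control and 1.08% in the 143B control. The sum itself was 21.9 FPKM in the JJ012 control and 22.1 FPKM in the 143B control. The sums and orders cover the 10 ligands only. BMP8B, which is not among them, was at 0.13 FPKM in the JJ012 control and 5.53 FPKM in the 143B control. In the JJ012 control the order was GDF15 (13.8 FPKM), GDF11 (3.23 FPKM), BMP4 (2.57 FPKM) and BMP2 (0.94 FPKM), followed by GDF6, BMP7, GDF5, BMP6, BMP8A and GDF10 between 0.36 and 0.02 FPKM. From GDF6 down to BMP8A no neighbour differed from the next beyond counting error. In the 143B control the order was BMP7 (9.19 FPKM), BMP2 (6.37 FPKM), GDF6 (2.44 FPKM), GDF11 (1.47 FPKM), BMP4 (1.1 FPKM) and BMP6 (0.85 FPKM), with BMP8A, GDF15, GDF5 and GDF10 at 0.35 FPKM or less. GDF11 and BMP4, and BMP4 and BMP6, did not differ beyond counting error there.

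**Figure D1:**
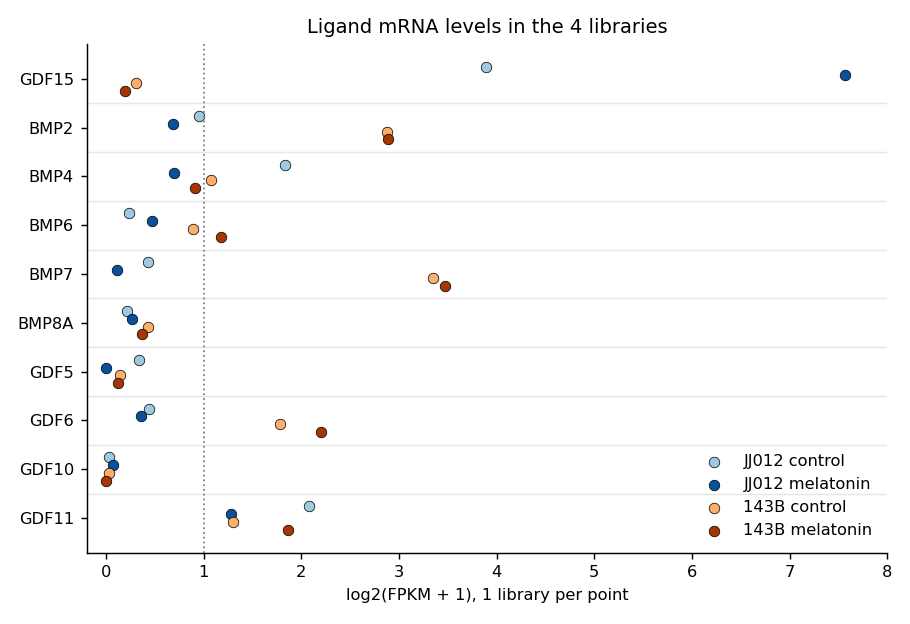
Level of each ligand in the 4 libraries as log2(FPKM + 1), 1 point per library, with the dotted line at 1 FPKM. GDF15 lies at 13.8 and 188 FPKM in JJ012 and at or under 0.24 FPKM in 143B, while BMP7, BMP2 and GDF6 lie higher in both 143B libraries than in both JJ012 libraries.

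Between the untreated libraries, 6 of the 10 ligands were tested. GDF15, BMP4 and GDF11 were higher in JJ012 and BMP2, BMP7 and GDF6 were higher in 143B, where 41.3% of all 16929 genes tested were past the threshold toward JJ012 and 27.4% toward 143B (39.6% and 25.1% of the protein-coding genes). GDF15 was 57.3-fold higher in JJ012 by CPM (95% interval, 28.9 to 133), from 554 counts against 8 counts. BMP7, a bone-inducing ligand also needed for kidney and eye development, was 25.9-fold higher in 143B (18.6 to 37.0), from 792 counts against 37 counts. BMP2, a potent osteoinductive ligand, was at a CPM ratio of 0.147 for JJ012 over 143B (0.111 to 0.193), and GDF6, a joint and skeletal patterning ligand, was 6.70-fold higher in 143B (4.39 to 10.6). Of all 10 ligands, 3 had intervals above 1 and 5, BMP6 and BMP8A included, had intervals below 1, where 45.7% and 28.3% of the 26622 genes over the floor did. The median of all genes tested was itself 0.29 higher in JJ012 on the log2 scale and -0.01 with TPM. Relative to that median, the log2 differences of BMP4 (0.77) and GDF11 (0.78) were 0.48 and 0.49 and lay below the threshold, while those of GDF15, BMP2, BMP7 and GDF6 remained past it.

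GDF15 was the ligand with the largest change after melatonin, and it changed in JJ012. Its level was 13.8 FPKM (554 counts) in the JJ012 control and 188 FPKM (6348 counts) with melatonin, against 0.24 FPKM (8 counts) in the 143B control and 0.14 FPKM (5 counts) with melatonin. By CPM the JJ012 libraries differed 13.6-fold (95% interval, 12.5 to 14.9), and the log2 fold change was 3.68. GDF15 moved from rank 3173 to rank 81 of all genes by FPKM in JJ012. It stood at rank 1 of the 7604 protein-coding genes that reached 5 FPKM, the ranking that led to its choice, and the next were SLC7A2 at 2.79 and SPIRE1 at 2.78. Among all 15794 genes tested it stood at rank 3. In 143B, a contrast that this ranking did not use, the CPM ratio was 0.579 (0.149 to 2.01), and a change was not detectable at this depth.

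The GDF15 gene (ENSG00000130513) spans chr19:18374731-18389176 on the plus strand, in the hg38 coordinates of the table, with 2087 exonic bases. The gene for MIR3189 lies within it on the same strand and had 2 counts or fewer in each library. Genes of this length had a running median log2 fold change of -0.35 in JJ012, and GDF15 stood 4.03 above it. Across 7 scalings its log2 fold change in JJ012 lay between 3.65 and 4.03.

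Promoter sequence is shown for the ligands with at least 1 FPKM in the JJ012 control, namely GDF15, GDF11 and BMP4, from RefSeq windows of 300 bases (GRCh38.p14, 250 before and 50 after the start site). Such windows were found for 7 of the 10 ligands, namely GDF15, GDF11, BMP4 (3 start sites), BMP6, BMP8A, GDF5 and GDF10. Both strands were searched for the TATA box TATAAA, the GC box GGGCGG, the ATF4-CHOP composite TGATGNAA, the AP-1 site TGANTCA and the E-box CACGTG, and no match of one motif overlapped a match of another in the ligand windows, while some GC boxes of GDF11 overlapped each other. Capitals mark a match. The first line holds the TATA match of GDF15 at chr19:18386117-18386146, and the next lines its GC boxes at chr19:18386027-18386056 and chr19:18386076-18386105. All of these are on the plus strand and were cut to 30 bases around the match. The others are the 150 bases before the start of GDF11 (chr12:55742972-55743121, plus strand) and before the most upstream of the RefSeq starts of BMP4 (chr14:53955051-53955200, minus strand).
GDF15 TATA: aagtccggggacTATAAAggccggtccggc
GDF15 distal GC box: cacccccagaccCCGCCCagctgtggtcat
GDF15 proximal GC box: gcagggggaggaGGGCGGgactgagcaggc
GDF11: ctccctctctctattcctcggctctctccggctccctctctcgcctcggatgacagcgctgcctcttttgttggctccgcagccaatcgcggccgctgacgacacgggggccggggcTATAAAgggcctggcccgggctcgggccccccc
BMP4: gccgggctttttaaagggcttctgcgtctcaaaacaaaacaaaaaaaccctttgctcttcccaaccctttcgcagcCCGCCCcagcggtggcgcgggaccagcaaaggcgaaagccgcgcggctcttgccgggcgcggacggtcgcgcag

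GDF15 and GDF11 each held a TATA match, starting 29 and 33 bases before the start site, and 11.5% of the 35116 windows in the RefSeq table hold one. GC boxes were found in the windows of GDF15 (2 matches), GDF11 (9), BMP6 (2), BMP8A (5) and GDF10 (1) and at 2 of the 3 BMP4 starts, against 45.0% of all windows. The ATF4-CHOP letters were in none of the ligand windows and in 3.62% of all windows. The AP-1 letters were also in none, against 7.71%, and the E-box was in the window of 1 BMP4 start, against 7.26%.

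In JJ012, the other ligands tested after melatonin were lower, opposite to GDF15. Of the 10 ligands 3 had 1 FPKM in a JJ012 library, so that 1 was past the threshold upward and 2 downward, where 19.6% of the 15794 genes tested rose and 18.6% fell (17.8% and 16.1% of the protein-coding genes). BMP4, which drives cartilage and bone formation, was at 2.57 FPKM (153 counts) in the control and 0.62 FPKM (31 counts) with melatonin. Its log2 fold change was -1.14 and its CPM ratio 0.241 (0.158 to 0.357). GDF11, a close relative of myostatin that patterns the axial skeleton, was at 3.23 FPKM (546 counts) and 1.43 FPKM (203 counts). Its log2 fold change was -0.80 and its CPM ratio 0.443 (0.375 to 0.521). Both were lower under each of the 7 scalings.

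The remaining 7 ligands were below 1 FPKM in both JJ012 libraries and are given by their counts. BMP7 had 37 counts in the control and 7 with melatonin, a CPM ratio of 0.225 (0.0847 to 0.512). BMP2 had 64 and 35 counts, a ratio of 0.651 (0.418 to 0.998), whose interval ends just below 1. GDF5, the ligand of developing joints, had 13 counts in the control and 0 with melatonin, which against the floor of 3 counts for the treated library alone is at least 3.64-fold lower. With the counting error of both libraries the 95% bound was 2.56-fold lower. GDF5-AS1, which overlaps GDF5 on the other strand, had 7 and 0 counts. BMP6, which also controls hepcidin in iron balance, was the ligand besides GDF15 with an interval above 1, with 13 and 24 counts and 95% bounds of 1.08 and 4.70 for the CPM ratio. The intervals of BMP8A (17 and 18 counts) and GDF6 (26 and 17 counts) included 1, and GDF10 was at 1 and 2 counts. In all, 2 ligands had intervals above 1 and 5 below 1, where 26.3% and 30.3% of the 25649 genes over the floor in JJ012 did.

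**Figure D2:**
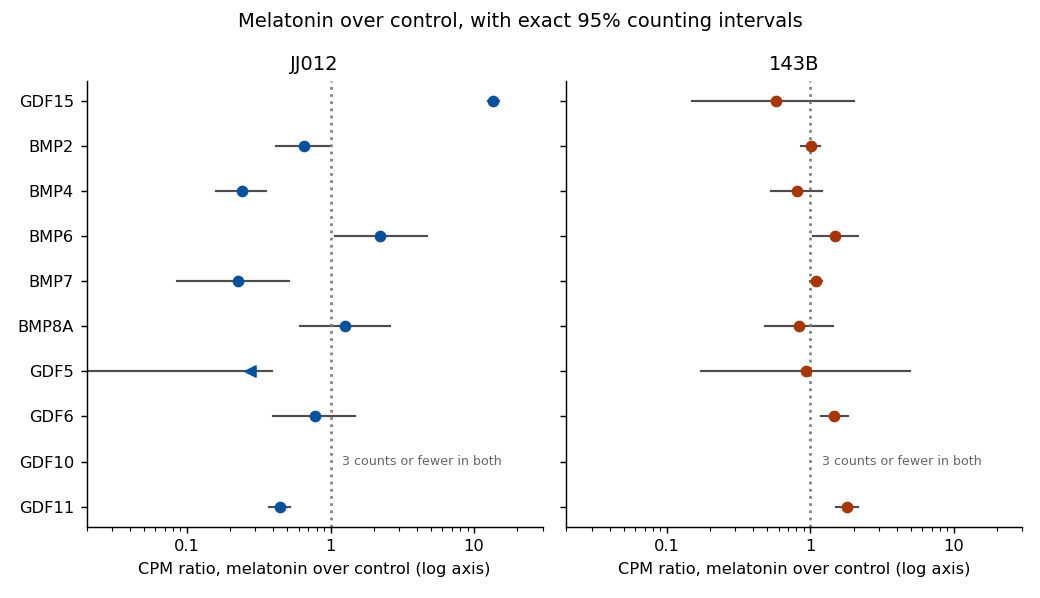
CPM ratio of melatonin over control for each ligand in JJ012 (left) and 143B (right) on a log axis, with exact 95% counting intervals as bars and a dotted line at 1. The triangle for GDF5 in JJ012 is the bound against the floor of 3 counts, and its bar runs to 0 beyond the axis. GDF15 stands at 13.6 in JJ012 with an interval across 1 in 143B, and GDF11 lies below 1 in JJ012 and above 1 in 143B.

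In 143B none of the 6 ligands tested passed the threshold, where 6.09% of the 14135 genes tested rose and 6.65% fell (3.48% and 2.6% of the protein-coding genes). BMP7, the most abundant, was at 9.19 FPKM (792 counts) and 10.1 FPKM (937 counts), a CPM ratio of 1.10 (0.995 to 1.21). BMP2 was at 6.37 FPKM (359 counts) and 6.39 FPKM (389 counts), a ratio of 1.00 (0.867 to 1.16). The interval of BMP2 leaves a change of at most 1.16-fold upward and the interval of BMP7 at most 1.21-fold, from counting error alone. The log2 fold change of BMP2 was above 0 in 3 of the 7 scalings and below 0 in 4, so it has no direction.
GDF11, GDF6 and BMP6 had intervals above 1, as had 21.6% of the 21826 genes over the floor in 143B, and no ligand had an interval below 1, as 18.7% of those genes had. GDF11 was at 1.47 FPKM (206 counts) and 2.64 FPKM (399 counts), a ratio of 1.79 (1.51 to 2.13). Its log2 fold change of 0.56 lay just under the threshold and passed it with TPM (0.71), CPM (0.80) and TMM factors (0.59). GDF6 was at 144 and 229 counts, a ratio of 1.47 (1.19 to 1.83), and BMP6 at 51 and 82 counts, a ratio of 1.49 (1.04 to 2.15). BMP4 had 54 and 47 counts and an interval that included 1 (0.533 to 1.21). BMP8A (31 and 28 counts) and GDF5 (4 and 4 counts) also had intervals that included 1, and GDF10 was at 1 and 0 counts.

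**Figure D3:**
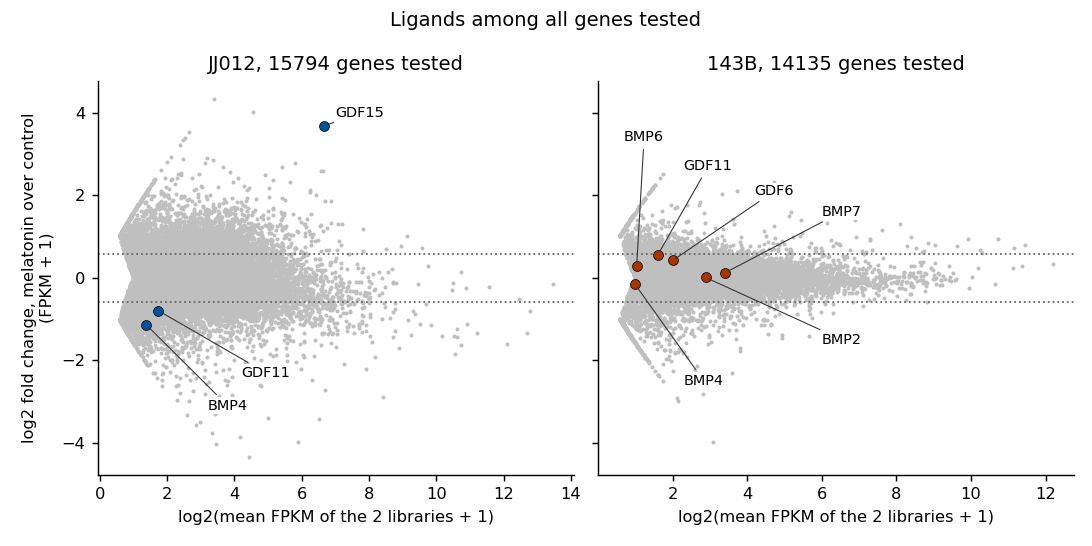
Log2 fold change (melatonin over control, FPKM + 1) against mean level for all genes tested in JJ012 (15794, left) and 143B (14135, right), with the tested ligands in colour and the threshold of 0.58 dotted. GDF15 lies at the upper edge of JJ012 at 3.68, BMP4 and GDF11 lie below the lower line, and the 6 ligands of 143B lie between the lines.

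With the line as a block, edgeR's quasi-likelihood test of melatonin over the 4 libraries, which has 1 residual degree of freedom and takes any difference in response between the lines as error, called 82 of 18107 genes (0.453%) at a Benjamini-Hochberg adjusted p under 0.05. It called none of the 6 ligands fitted besides GDF15, which was left out because its choice used these libraries. BMP4 had the lowest adjusted p of them, 0.885, with a log2 fold change of -1.21 over both lines, from CPM ratios of 0.241 in JJ012 and 0.806 in 143B. The unadjusted p of this test was under 0.05 for none of the 6 and for 1034 of the 18107 genes fitted. The lowest of the 6 was 0.0551.

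After melatonin the make-up of the ligand mRNA in JJ012 was almost wholly GDF15. It took 98.1% of the summed FPKM of the 10 ligands, and the 9 others together went from 8.07 FPKM in the control to 3.66 FPKM. In 143B the 9 others went from 21.9 to 25.2 FPKM, and BMP7 (39.7%) and BMP2 (25.2%) remained the largest shares of the 10. BMP8B, which is not among the 10, was at 5.53 FPKM in the 143B control. With melatonin it was at 7.94 FPKM there, above BMP2 (6.39 FPKM). The order of BMP7, BMP2, GDF6 and GDF11 in 143B was the same in both libraries, and each was above the next beyond counting error in the melatonin library. GDF11 and SARNP overlap on opposite strands, as do BMP6 and TXNDC5, and the strand setting of the counting is not given in the sources used here, so reads in the shared stretches could belong to either gene. SARNP had 57 and 29 counts in JJ012 and 74 and 57 counts in 143B, and TXNDC5 between 112 and 153 counts in each library. BMP8A has a near-identical copy, BMP8B, and overlaps PPIEL (78 and 53 counts in JJ012, 10 and 3 counts in 143B), so its low counts are uncertain. As the other copy, BMP8B has uncertain counts too, and so has its place above BMP2.

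The 5 protein-coding genes whose pattern over the 4 libraries was most like that of GDF15 were LCP1, SYT13, PRUNE2, CHI3L1 and HRK. Likeness was the Euclidean distance between log2(FPKM + 1) values centred on the mean of each gene, over 8521 genes with at least 5 FPKM in a library, for which the median distance was 5.81. LCP1, an actin-bundling protein, was nearest at 1.34, with 27.0 and 122 FPKM in JJ012 and 1.53 and 0.93 FPKM in 143B. HRK, a pro-apoptotic BH3-only protein, lay at 2.35, with 579 and 3099 counts in JJ012 and 28 and 33 counts in 143B. SYT13 (1.83) was at 19.4 and 45.9 FPKM in JJ012, PRUNE2 (2.23) at 6.90 and 24.6 FPKM, and CHI3L1 (2.25) at 33.3 and 47.7 FPKM, and each was at 0.07 FPKM or less in 143B. The likeness measure weighs the difference between the lines as well as the change with melatonin.

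Of the genes that regulate or receive the ligands, the GDF15 receptor was not found in either line. GFRAL was at 0 counts in all 4 libraries, which allows up to the floor of 3 counts per library. RET was at 105 and 32 counts in JJ012, a CPM ratio of 0.363 (0.236 to 0.543), and at 14 and 20 counts in 143B. All 7 BMP receptors were tested in JJ012, of which 1 rose and 1 fell, where 19.6% and 18.6% of all genes tested did, with a median log2 fold change of 0.22 against 0.01 over all genes tested. ACVR1, a type I receptor, rose from 7.92 to 16.7 FPKM, a ratio of 2.11 (1.98 to 2.25). ACVRL1, the type I receptor of endothelial cells, fell from 5.37 to 1.89 FPKM, a ratio of 0.351 (0.291 to 0.422), and had 0 and 4 counts in 143B. The others in JJ012 were BMPR1A at 0.11, BMPR1B at 0.07, BMPR2 at 0.48, ACVR2A at 0.22 and ACVR2B at 0.57 on the log2 scale. In 143B, 5 receptors were tested and none passed, where 6.09% of all genes tested rose and 6.65% fell. Their median was 0.09 against 0.03 over all genes.

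Among co-receptors TGFBR3, which presents ligands to the receptors, rose in JJ012 from 3.14 to 8.49 FPKM, a ratio of 2.70 (2.43 to 3.00). It was the single one of 4 tested past the threshold, where 19.6% of all genes tested rose and 18.6% fell. None of 4 passed in 143B, where 6.09% of all genes tested rose and 6.65% fell. Of the 6 extracellular BMP antagonists tested in JJ012, 3 fell and none rose, where 18.6% of all genes tested fell and 19.6% rose, and their median was -0.67 against 0.01 over all genes. These were NBL1 (57.3 to 26.4 FPKM), FSTL3 (61.2 to 34.9 FPKM) and FST (6.88 to 3.58 FPKM). The last pair bind mainly activins, GDF11 and myostatin. In 143B none of the 5 tested passed, where 6.09% of all genes tested rose and 6.65% fell. Their median there was -0.08, against 0.03 over all genes. NOG (noggin) and GREM1 (gremlin), which block BMP2, BMP4 and BMP7, were chosen after their values were seen. NOG was at 94.5 and 89.5 FPKM in 143B and at 2.01 and 1.04 FPKM in JJ012. GREM1 was at 14.2 and 17.2 FPKM in 143B and at 0.01 and 0.02 FPKM in JJ012. They were the 2 of 7 antagonists tested between the untreated libraries that were higher in 143B. The other 5, among them FSTL3 and NBL1, were higher in JJ012. Of all genes tested, 41.3% were past the threshold toward JJ012 and 27.4% toward 143B. The median of the 7 was 0.88 toward JJ012, against 0.29 over all genes. Of the convertases and C-proteinases, 1 of 4 tested in JJ012 fell, against 18.6% of all genes, with a median of -0.46. It was FURIN, which cleaves the BMP precursors, with 55.9 FPKM in the control and 23.8 FPKM with melatonin, a ratio of 0.426 (0.404 to 0.449). In 143B FURIN was at 26.5 and 27.3 FPKM. None of the 4 passed there, where 6.09% of all genes tested rose and 6.65% fell.

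**Figure D4:**
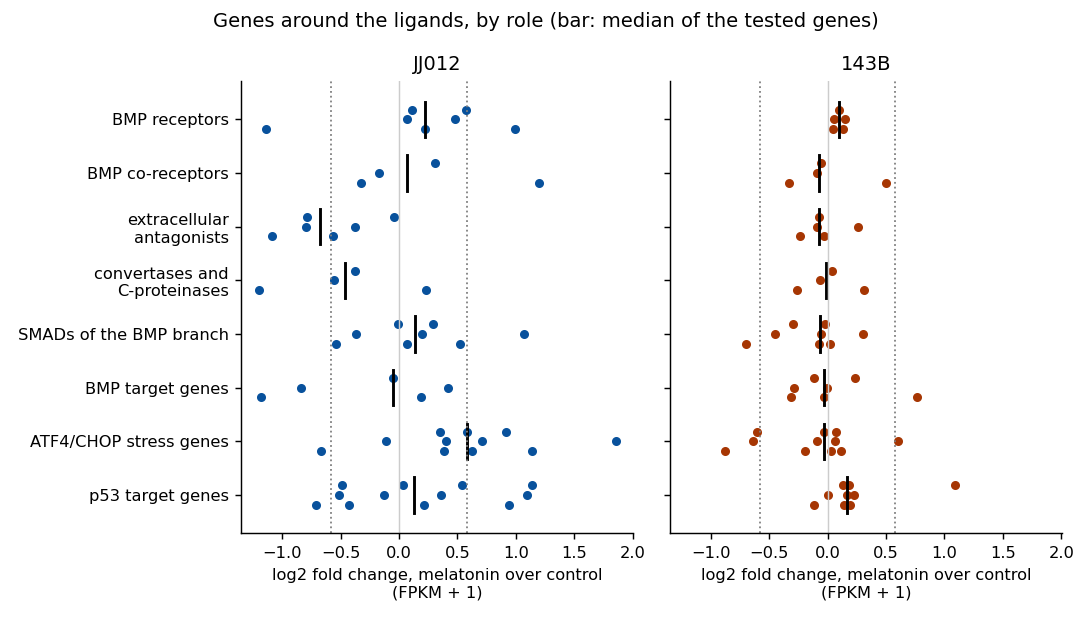
Log2 fold change (melatonin over control, FPKM + 1) of each tested gene around the ligands, by role, in JJ012 (left) and 143B (right), with a black bar at the median of the tested genes and dotted lines at the threshold of 0.58. In JJ012 the antagonists have a median of -0.67 and the ATF4/CHOP stress genes one of 0.58, and in 143B the medians of the 8 roles shown lie between -0.08 and 0.16.

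In the SMAD step, 1 of 8 tested genes rose in JJ012, against 19.6% of all genes, with a median of 0.13, and 1 of 8 fell in 143B, against 6.65%, with a median of -0.06. The first was SMURF1, a ubiquitin ligase that targets BMP SMADs, from 9.23 to 20.4 FPKM in JJ012. The other was SMAD9, from 4.50 to 2.40 FPKM in 143B, a ratio of 0.533 (0.453 to 0.626), and its log2 fold change in JJ012 was -0.54. SMAD4 had log2 fold changes of 0.20 in JJ012 and -0.02 in 143B. Of the BMP target genes, 2 of 5 tested in JJ012 fell and none rose, where 18.6% of all genes tested fell, with a median of -0.05. These were ID3 (30.1 to 12.8 FPKM) and ID2 (7.15 to 3.55 FPKM), while ID1, a common readout of BMP signalling, was at 38.7 and 37.4 FPKM. In 143B 1 of 7 tested rose, where 6.09% of all genes tested did, with a list median of -0.03. It was DLX5, an osteoblast homeobox gene, from 1.73 to 3.64 FPKM.

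Of the 11 ATF4/CHOP stress genes tested in JJ012, which share known regulators with GDF15, 5 rose and 1 fell, where 19.6% of all genes tested rose and 18.6% fell, and their median was 0.58 against 0.01. DDIT3, which encodes CHOP, rose from 44.2 FPKM (1111 counts) to 162 FPKM (3425 counts), a ratio of 3.67 (3.43 to 3.93). TRIB3 rose from 12.4 to 28.6 FPKM and PSAT1 from 212 to 366 counts, and VLDLR fell from 11.9 to 7.14 FPKM. ATF4 itself was at 135 and 203 FPKM, a log2 fold change of 0.58 that lay just under the threshold (0.577). In 143B 1 of the 11 tested rose and 3 fell, where 6.09% and 6.65% of all genes did, with a median of -0.03. CHAC1 rose there from 15 to 43 counts, DDIT3 fell from 17.5 to 10.9 FPKM, CEBPB from 65.0 to 34.9 FPKM and ATF3 from 3.35 to 1.87 FPKM, and ATF4 was at 346 and 353 FPKM.

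Of the 12 p53 target genes tested in JJ012, 3 rose and 1 fell, near the 19.6% and 18.6% of all genes that did, with a median of 0.13. GADD45A, ZMAT3 and BBC3, which encodes the pro-apoptotic PUMA, rose by 1.14, 1.10 and 0.94 on the log2 scale, and FDXR fell by 0.71. CDKN1A, which encodes the cell cycle inhibitor p21, was at 55.1 and 50.4 FPKM, and MDM2 at 9.30 and 9.57 FPKM. In 143B 1 of the 9 tested rose, GADD45A at 1.09, where 6.09% of all genes tested rose, with a list median of 0.16. CDKN1A was at 94.3 and 107 FPKM there and MDM2 at 4.50 and 4.08 FPKM.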

How the data were processed

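RNA-seq libraries of JJ012 and 143B cells were analysed, 1 per condition. Per gene, the authors deposited raw counts and, beside them, FPKM computed from these counts, the exonic length and the library total, rounded to 2 decimals. The submitters' processing notes name cutadapt 1.9.1, HISAT2 2.2.1, HTSeq 0.6.1, DESeq2 and hg38. Strand setting and annotation release are not given in the sources used here. The labels do not explain the suffix T in the table, and it was taken to mean the melatonin library.

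The members and gene lists were chosen with earlier results of these data known. Named genes were all 10 ligands, up to 3 rises and 3 falls past the threshold per list and line, receptors and main regulators, and the 5 genes most like GDF15. Log2 fold changes used a pseudocount of 1 FPKM, a filter of 1 FPKM and a threshold of 0.58. CPM ratios with exact 95% intervals came from the counts. Within a line there are no replicates, so no count test was run there. edgeR 4.0.16 gave TMM factors and a quasi-likelihood test of treatment over both lines with the line as a block, added after the data were seen. It was run on genes with at least 1 FPKM in a library. DESeq2 was not run. Alternatives were a pseudocount of 0.1, no filter or 5 FPKM, TPM, CPM, TMM and median-of-ratios factors, centring, subtraction of the running median over 501 genes ordered by exonic length, and a threshold of 1. Gene types came from GENCODE 29, which holds 58254 of the 61806 gene IDs. The procedures were tested on simulated data. Python 3.11.15, numpy 2.4.6, scipy 1.17.1, pandas 2.3.3, matplotlib 3.10.9 and R 4.3.3 were used.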

Additional observations from a re-analysis of the deposited data

Results flagged for a closer look

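Among 57 listed genes tested in both lines, 2 of them ligands (BMP4 and GDF11), 11 had CPM ratios on opposite sides of 1 in JJ012 and 143B with both counting intervals away from 1. Given here are the 4 of these that were ligands or passed the log2 threshold of 0.58 in both lines. How many of all genes had such opposite intervals was not counted, so the 11 have no background share. Of all genes over the floor, 26.3% had intervals above 1 and 30.3% below 1 in JJ012. In 143B the shares were 21.6% and 18.7%. The difference between the lines was not tested, since each line had 1 library per condition. For GDF11 the JJ012 change less the 143B change was -1.36 on the log2 scale, from -0.80 and 0.56, the latter under the threshold. DDIT3, which encodes CHOP, had 1.85 and -0.64, a difference of 2.49. CEBPB had 0.63 and -0.88, a difference of 1.51. ATF3 had 0.71 and -0.60, a difference of 1.31.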

How the results depend on the processing

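GDF15 kept its rise in JJ012, and BMP4 and GDF11 their fall, under the 7 scalings. With a filter of 5 FPKM, GDF15 was the 1 ligand left past the threshold in JJ012, which by construction set the median of the tested ligands to 3.68 in place of -0.80. In 143B, 1 ligand, GDF11, passed with a pseudocount of 0.1, TPM, CPM or TMM factors, against 0 otherwise, and without a filter the median of the ligands was -0.0046 in place of 0.20. Of the 91 genes in 10 lists around the ligands, only those reaching 1 FPKM in a library of the pair could pass at the main filter. In JJ012 20 passed, where 19.6% of all genes tested rose and 18.6% fell. The 20 became 31 with a pseudocount of 0.1, 31 with TPM and 10 at a threshold of 1. In 143B 7 passed, where 6.09% of all genes tested rose and 6.65% fell. The 7 became 3 with a filter of 5 FPKM and 1 at a threshold of 1. The shares of all genes under these other settings were not counted. CHAC1 was 0.59 higher in untreated JJ012 than in 143B on the log2 scale and -0.33 after the trend over exonic length was removed. TPM moved the median gene of JJ012 from 0.01 to 0.27. The labels give no replicate numbers. The lines paired as blocks, chosen after seeing the data, gave 0 called ligands besides GDF15, with 1 residual degree of freedom, and leaving out a library would leave none. Low counts limit what could be detected for the 7 ligands below 1 FPKM in JJ012. Of 1907 further values for single genes, 1497 kept their size within counting error, 409 moved and 1 past the threshold (CHAC1, above) changed sign. The cause was not tested.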

Other observations

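Of 11 further ligands of the family, BMP8B was the one with at least 1 FPKM, and in 143B alone. It was at 5.53 FPKM (424 counts) and 7.94 FPKM (658 counts) there, a CPM ratio of 1.44 (95% interval, 1.27 to 1.63), and at 12 and 11 counts in JJ012. These counts are uncertain because BMP8A is a near-identical copy, which the interval leaves out. MSTN, which encodes myostatin, was at 45 counts in the JJ012 control and 15 counts with melatonin, a ratio of 0.397 (0.205 to 0.725), and at 1 count in each 143B library. The other ligands of that list were at 0.27 FPKM or less in each library, the highest being GDF9 in the JJ012 control.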
